A study of Mus musculus with 26 samples.

Results

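The comparison described here sets RNA from saline animals taken after withdrawal against RNA from saline animals taken without it, within the first of the runs of library numbers (called library set 1). It holds 6 of the 26 RNA-seq libraries of the study: 3 labelled saline (replicates 1, 3 and 4) and 3 labelled saline withdrawal (replicates 1, 2 and 3). All 6 are immunopurified polysome RNA of the accumbens nucleus, the part of the ventral striatum where dopamine acts in reward, taken from adult mice. All animals carried the Drd2-TRAP transgene of line CP101 on a background of FVB/N and Swiss Webster crossed to C57BL/6, and every animal of these 2 groups had intravenous self-administration of saline with long access, so cocaine is no part of the contrast. The length of withdrawal, the sex of the animals and whether a library is 1 animal or a pool are not stated in the labels. The n given is therefore a number of libraries, and every p-value rests on the spread among libraries, which may in part be technical. The model was fitted over all 16 immunopurified libraries of set 1, so the 10 libraries of cocaine groups share in the estimate of spread behind every p and standard error: nonescalating (cocaine without escalation of intake, n = 5), nonescalating withdrawal (n = 3) and escalating (n = 2). Their levels are given only where named, as are those of 3 saline withdrawal libraries of the later run (library set 2).

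In translating ribosome affinity purification (TRAP), a transgene puts an EGFP tag on a ribosomal protein in 1 class of cells, and an antibody against EGFP pulls down those ribosomes with the mRNA they are translating. In line CP101 the tag is driven by the Drd2 promoter, which in the accumbens is active in medium spiny projection neurons of the D2 type and also in cholinergic interneurons. D2 neurons carry dopamine D2 and adenosine A2a receptors, release GABA and the opioid peptide enkephalin, and are studied for their part in restraining reward seeking. Withdrawal means a period without access after the last session, and saline animals are the drug-free counterpart of the cocaine groups.

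The 6 libraries held 1941479 to 11026706 counts in genes, and between 14007 and 15918 genes had at least 1 count. A level of 3 counts corresponded to 0.272 to 1.55 CPM (counts scaled to library size), so a gene at a few CPM rested on few counts in the shallowest library, saline withdrawal replicate 1. Pearson correlations of log2 CPM ran from 0.684 to 0.858 within a group (6 pairs, median 0.7585) and from 0.703 to 0.852 between the groups (9 pairs, median 0.781), so libraries of 1 group were no more alike than libraries of different groups. Saline replicate 1 stood farthest from the others, with a median correlation of 0.733 against 0.747 to 0.825. Reads outside annotated genes made up 57% of saline replicate 1 and 52.3% of withdrawal replicate 1, against 29.7% to 45.6% of the other libraries. The part of this in the levels below was not tested. Markers of the tagged cells differed in how far they stood above input RNA. Drd2 (chromosome 9, 49340627 to 49408177, mm10) lay between 1421 and 2813 CPM in saline and between 858 and 3029 CPM after withdrawal, against 280 and 384 CPM in the 2 libraries of input RNA, scaled with them. Of 8 D2 neuron markers 4 were above both inputs in all 6 libraries, and of 6 cholinergic markers 0 were. Of 8 D1 neuron markers, 6 were below both inputs in all 6 libraries. Of 15 endothelial and mural markers, 14 were above both inputs in all 6 libraries, so the immunopurified RNA also held vascular RNA.

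No gene differed between saline withdrawal and saline past the threshold. Of 16569 genes tested with edgeR's quasi-likelihood test over the 16 immunopurified libraries of set 1, 0 (0%) had a Benjamini-Hochberg adjusted p under 0.05, and the smallest adjusted p was 0.952. At an unadjusted p under 0.05 there were 784 genes, 373 of them higher after withdrawal (2.25% of those tested) and 411 lower (2.48%). DESeq2 called 12 genes, 9 of them with 0 counts in all libraries of 1 group, and limma voom called 0 with 638 genes at an unadjusted p under 0.05. In 611 genes (3.69%) all 3 withdrawal libraries lay above all 3 saline libraries, and in 486 genes (2.93%) all 3 lay below. The median log2 fold change over all tested genes was -0.04 with quartiles of -0.73 and 0.62, against a median standard error of 1.12, so most single-gene differences were smaller than their error. The values below are therefore levels and differences in these 6 libraries, none of which passed the test.

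Among the 12 genes with the smallest p on the higher side, the groups were separate in 11, beside 3.69% of all genes. Their fitted log2 fold changes ran from 1.79 to 3.61. These genes were chosen by p in the same libraries, which favours separate groups, so the count describes the choice. The 12 genes include a histone deacetylase, enzymes of sterol, serine and nucleotide metabolism, and regulators of small GTPases and protein acetylation. Hdac5 (chromosome 11, 102194432 to 102230166, minus strand), a class IIa histone deacetylase that moves between nucleus and cytoplasm with neuronal activity, had 116, 146 and 157 CPM in saline replicates 1, 3 and 4 and 1047, 577 and 183 CPM in withdrawal replicates 1, 2 and 3. The third withdrawal library was close to the saline range, and the first was far above it. Group means were 140 CPM ± 21.4 (SD, n = 3) and 602 CPM ± 433 (SD, n = 3). The fitted log2 fold change was 2.11 with a standard error of 0.55, and the adjusted p in edgeR was 0.952, the value shared by all 24 genes with the smallest p in either direction.

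Lss (chromosome 10, 76531588 to 76557138) encodes lanosterol synthase, which closes the sterol ring in cholesterol synthesis. It had 1.51, 9.14 and 6.27 CPM in saline and 30.3, 28.9 and 34.1 CPM after withdrawal (log2 fold change 2.45, SE 0.79). The 3 withdrawal libraries were close together, and the saline libraries rested on 7, 77 and 21 counts. Shmt2 (chromosome 10, 127517123 to 127522444), the mitochondrial enzyme that turns serine into glycine for the folate cycle, had 0, 3.44 and 5.97 CPM in saline and 25.2, 20.8 and 39.0 CPM after withdrawal (log2 fold change 3.18, SE 1.09). For both enzymes every withdrawal library lay above every saline library.

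Proser1, a nuclear protein rich in proline and serine (chromosome 3, 53463666 to 53481755), had 39.6, 53.5 and 53.2 CPM in saline and 157, 261 and 89.5 CPM after withdrawal (log2 fold change 1.79, SE 0.59). Stk11ip, a partner of the kinase LKB1, had 4.52, 21.2 and 12.2 CPM against 74.1, 50.2 and 71.7 CPM (log2 fold change 2.36). Ptrh2, a mitochondrial peptidyl-tRNA hydrolase, had 5.38, 7.95 and 10.2 CPM against 67.6, 40.0 and 22.1 CPM (log2 fold change 2.46). All 3 genes were separate between the groups, with the wider spread after withdrawal.

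Nt5c3b, a cytosolic nucleotidase, had 1.51, 1.90 and 1.49 CPM in saline, which is 5 to 16 counts, and 14.9, 36.0 and 9.76 CPM after withdrawal (log2 fold change 3.61, SE 1.23). Naa40, the acetyltransferase of histone N-termini, had 1.51, 4.75 and 7.17 CPM against 18.7, 32.9 and 38.5 CPM (log2 fold change 2.75). Otof, which encodes the calcium sensor otoferlin, had 1.29, 7.83 and 13.4 CPM against 36.8, 36.2 and 79.4 CPM (log2 fold change 2.76). Saline replicate 1 was the lowest saline library in these last 2 genes. Tmx2, a thioredoxin-related protein of the endoplasmic reticulum, had a log2 fold change of 2.14, and Arf2, a small GTPase of vesicle traffic, one of 2.22. Cdc42ep1, an effector of the GTPase Cdc42, was the exception: 1 withdrawal library had 195 CPM while the other withdrawal libraries (14.01 and 17.45 CPM) lay below saline replicate 4 (19.7 CPM). Without withdrawal replicate 1 its log2 fold change went from 3.14 to 0.88.

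On the lower side, groups were again separate in 11 of the 12 genes with the smallest p, beside 2.93% of all genes. The choice by p favours this here too. Fitted log2 fold changes of these genes lay between -1.37 and -5.26. They include a phosphatase subunit, an axon guidance ligand and proteins of RNA processing and lysosomal traffic. Ppp1r16a (chromosome 15, 76671615 to 76694919), a regulatory subunit that targets protein phosphatase 1, had 35.8, 195 and 11.4 CPM in saline and 3.26, 8.30 and 2.81 CPM after withdrawal. The saline libraries spread over a wide range, and the lowest of them was only a little above the highest withdrawal library. The group means were 80.6 CPM ± 99.6 (SD, n = 3) and 4.79 CPM ± 3.04 (SD, n = 3), and the fitted log2 fold change was -4.04 with a standard error of 1.04. It is the gene with the smallest unadjusted p that edgeR gave to any of the 24 (0.000772), and DESeq2 called it (adjusted p = 0.0147, against 0.952 in edgeR).

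Rgma (chromosome 7, 73375509 to 73419899), the repulsive guidance molecule that binds the receptor neogenin, had 81.4, 204 and 56.8 CPM in saline and 7.93, 32.2 and 8.25 CPM after withdrawal (log2 fold change -2.80, SE 0.83). Cacul1 (chromosome 19, 60524696 to 60581025), a cullin-domain protein associated with the cell cycle kinase Cdk2, had 281, 163 and 69.9 CPM against 54.1, 45.9 and 44.1 CPM (log2 fold change -1.84, SE 0.52). Spata2 (chromosome 2, 167481133 to 167492887), an adaptor of the deubiquitinase Cyld in tumour necrosis factor signalling, had 429, 126 and 146 CPM against 75.5, 36.5 and 66.4 CPM (log2 fold change -1.98, SE 0.59). In these 3 genes the withdrawal libraries were all low, while the saline libraries differed among themselves by more than the gap between the groups.

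Vps33a and Atxn7l1 were the steadiest of the lower genes. Vps33a, a subunit of the complexes that tether vesicles to endosomes and lysosomes, had 227, 168 and 187 CPM in saline and 41.0, 105 and 78.0 CPM after withdrawal (log2 fold change -1.37, SE 0.45). Atxn7l1, a relative of ataxin 7, had 181, 147 and 181 CPM against 78.8, 41.7 and 69.0 CPM (log2 fold change -1.43, SE 0.45). For Atxn7l1 the gap between the groups was wider than the range within either, and for Vps33a it was about as wide as the range within each. Ddx47, an RNA helicase of ribosomal RNA processing, had 96.7, 139 and 71.1 CPM against 19.6, 42.3 and 31.1 CPM (log2 fold change -1.72, SE 0.53).

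The remaining lower genes leaned on 1 saline library. Aaed1, a peroxiredoxin-like protein, had 109 CPM in saline replicate 1 against 9.85 and 8.36 CPM in the other saline libraries and 1.40 to 3.41 CPM after withdrawal. Commd7 had 158 CPM in saline replicate 1 against 35.0 and 19.7 CPM in replicates 3 and 4, and 3.26 to 15.2 CPM after withdrawal. Islr, a cell surface protein of stromal cells, had 113 CPM in saline replicate 3 against 13.8 and 13.4 CPM, and 2.33, 1.57 and 0 CPM after withdrawal. The lower bound of detection matters for Ccdc61, a centrosomal protein, which had 60.9, 26.5 and 7.77 CPM in saline and 2, 1 and 8 counts after withdrawal. Zfp142, a zinc finger protein, had 693 CPM in saline replicate 1, while saline replicate 3 (74.6 CPM) lay within the withdrawal range of 69.6 to 88.6 CPM.

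**Figure D1:**
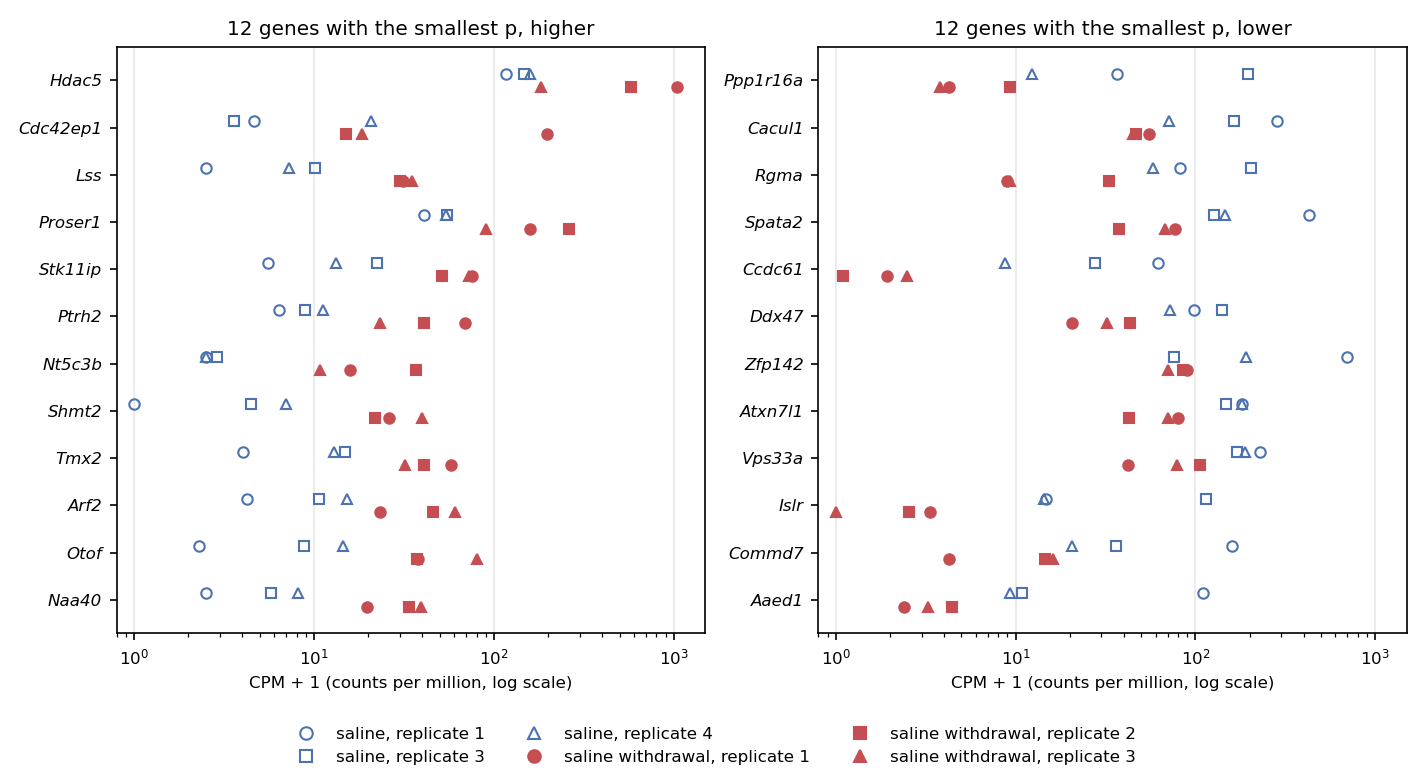
Level in each of the 6 libraries of the 24 genes of smallest p, as CPM + 1 on a log axis, with open blue symbols for saline and filled red symbols for saline withdrawal. In 11 of 12 genes on each side the colours do not overlap, which the choice of genes by p favours. The saline libraries of the lower genes spread widely (Ppp1r16a 11.4 to 195 CPM).

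Saline replicate 1 was often the extreme saline library in both sets of 12. It was the lowest saline library in 10 of the 12 higher genes and the highest saline library in 7 of the 12 lower genes. How often it was the lowest or highest saline library over all genes was not counted, so these counts have no background beside them. This library also had the highest summed level of vascular, interferon, microglial and astrocyte markers of the 6. The part of its composition in these differences was not tested. Without this library, 481 genes had an unadjusted p under 0.05 in place of 784, the fewest of the 6 fits that left out 1 library (481 to 1026).

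Genes that mark the tagged neurons had overlapping levels. Drd2 had 2055, 2805 and 1417 CPM in saline and 856, 3020 and 2320 CPM after withdrawal (log2 fold change -0.02, SE 0.58). Adora2a, the adenosine A2a receptor, had 469, 883 and 312 CPM against 507, 651 and 565 CPM (log2 fold change 0.05, SE 0.61). Penk, the enkephalin precursor, had 1579, 5438 and 1735 CPM against 1949, 3929 and 3550 CPM (log2 fold change 0.11, SE 0.64). These 3 folds were far inside their errors, and their sign changed in some of the settings tried. Of 8 D2 neuron markers 4 were above and 4 below 0, with a median log2 fold change of 0.02 beside -0.04 over all genes. That balance rested on single libraries: without saline replicate 3 the median was 0.76 with 7 of 8 above 0, and without saline replicate 4 it was -0.23 with 2 of 8 above 0. Gpr6, an orphan receptor of D2 neurons, was the only one of them with separate groups: 29.7, 38.8 and 50.8 CPM in saline and 69.0, 97.3 and 53.3 CPM after withdrawal (log2 fold change 0.88, SE 0.96). On the higher side 3.69% of all genes were separate.

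Markers that D1 and D2 medium spiny neurons share split evenly, with 8 above and 8 below 0 of 16 and a median of 0.04. Without saline replicate 3 the median was 0.64 with 15 of 16 above 0, and without saline replicate 1 it was -0.14 with 4 of 16. Gad1, which encodes the GABA-synthesising enzyme GAD67, had 54.9, 274 and 120 CPM in saline and 186, 354 and 308 CPM after withdrawal (log2 fold change 0.92, SE 0.55). Rarb, the retinoic acid receptor beta of the striatum, had 447, 199 and 68.1 CPM against 57.4, 148 and 107 CPM (log2 fold change -1.19, SE 0.60). Drd1, the marker of the other class, was low in every library, at 27.8, 49.5 and 41.8 CPM against 12.1, 37.0 and 57.6 CPM, and Tac1, the substance P precursor, ran from 0.466 to 30.0 CPM. Chat, the acetylcholine-synthesising enzyme of cholinergic interneurons, had 0, 10.9 and 2.69 CPM in saline and 1.40, 3.87 and 24.8 CPM after withdrawal. The cholinergic list as a whole gave a median of 0.55 over 6 tested genes that turned to -1.02 without withdrawal replicate 3.

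The lists that stood farthest from the median of all genes were those of cells the transgene should not tag. All 11 tested microglial markers were lower after withdrawal, beside 51.9% of all tested genes, with a median log2 fold change of -2.44. In 3 of them, Cx3cr1 and Ctss included, the groups were separate, beside 2.93% of all genes on the lower side. The summed level of the 11 tested microglial markers was 463, 42.4 and 170 CPM in saline and 59.7, 11.98 and 11.82 CPM after withdrawal. The groups thus overlapped through saline replicate 3 and withdrawal replicate 1. Csf1r, the receptor of the microglial growth factor, made up most of the highest sum: 402, 3.92 and 45.1 CPM in saline and 31.2, 1.20 and 4.69 CPM after withdrawal. Ctss, a lysosomal protease of microglia, had 15.1, 1.07 and 4.78 CPM against 0, 0.369 and 0.188 CPM.

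In every setting tried the microglial median stayed below 0, between -3.60 and -1.61. Several of these markers rest on a few counts: 3 or 4 of the 11 tested ones were at 0 counts in every library but saline replicate 4. Without saline replicate 1 and withdrawal replicate 1, all 10 tested markers were below 0 (median -3.17). Without saline replicate 4, 2 of 10 were above 0 and 7 below (median -1.61), and with the replicate number as a block 1 of 11 was above 0. In bulk RNA, fewer cells of a type and less RNA per cell cannot be told apart, and in a pull-down the carry-over of untagged RNA adds to both.

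Astrocyte markers had 10 of 13 genes below 0 and a median of -0.72, which stayed below 0 in every setting tried (-0.96 to -0.30). Slc1a2, the glutamate transporter GLT-1, had 2101, 906 and 1489 CPM in saline and 884, 455 and 659 CPM after withdrawal (log2 fold change -1.17, SE 0.53). The groups were separate, although the lowest saline and the highest withdrawal library differed little. Ndrg2, an astrocyte protein of the N-myc downstream regulated family, had 366, 141 and 270 CPM against 97.9, 93.8 and 127 CPM (log2 fold change -1.29, SE 0.58). These were the 2 of 13 genes with separate groups, beside 2.93% of all genes on the lower side. Neither gene passed (adjusted p = 0.952 in edgeR for each). Gja1, the astrocyte gap junction protein connexin 43, lay the other way with overlapping groups, at 12.06, 2.37 and 13.7 CPM in saline and 58.8, 18.5 and 11.8 CPM after withdrawal.

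The myelin markers turned on a single library. Saline replicate 4 had a summed oligodendrocyte level of 3076 CPM, while the other 5 libraries had 449 to 561 CPM. Mbp, myelin basic protein, had 199, 257 and 1619 CPM in saline and 143, 146 and 186 CPM after withdrawal (log2 fold change -2.13, SE 0.79). Mobp, another myelin protein, had 147, 70.5 and 1073 CPM against 21.5, 73.7 and 108 CPM (log2 fold change -2.66, SE 0.91). Over the 14 myelin markers 6 were above and 8 below 0 with a median of -0.05, which became 0.61 without saline replicate 4. Mog, a protein of the outer myelin surface, was the other myelin marker with separate groups, on the higher side at 0, 2.49 and 2.09 CPM against 6.06, 9.68 and 4.88 CPM. The cortical excitatory markers followed the same library: their sums were 0.431, 48.9 and 108 CPM in saline and 5.13, 31.7 and 17.1 CPM after withdrawal. All 6 were below 0 (median -1.71). Without saline replicate 4 the median was 2.46, with 3 above and 3 below 0. These markers were near the floor: 5 of the 6 had 0 counts in saline replicate 1 and 3 had 0 counts in saline replicate 3. Of 7 markers of oligodendrocyte precursors 3 were above and 4 below 0. The groups were separate in 1 on each side, beside 3.69% (higher) and 2.93% (lower) of all genes. Neu4, a sialidase, had 0 counts in all saline libraries and 12, 7 and 18 counts after withdrawal (5.595, 0.645 and 3.38 CPM). Pdgfra, the growth factor receptor of these cells, had 11.4, 22.4 and 24.5 CPM against 6.53, 8.67 and 9.19 CPM, (log2 fold change -1.25, SE 0.83).

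Vascular and interferon genes varied mainly between libraries of 1 group. The 15 endothelial and mural markers summed to 10670, 1754 and 5400 CPM in saline and 8422, 1982 and 3440 CPM after withdrawal, so replicate 1 was the richest in each group. Of these markers 13 were below 0 (median -0.36), and without saline replicate 1 the median was 0.39. Single-gene folds in this list ran from -1.53 to 0.45, with 2 of 15 above 0. Vwf, the von Willebrand factor of endothelium, went against most of the list with overlapping groups, at 383, 55.4 and 305 CPM against 463, 201 and 349 CPM. The 24 interferon and antigen presentation genes summed to 3854, 298 and 676 CPM in saline and 2050, 229 and 308 CPM after withdrawal. They had 19 members below 0 and a median of -0.75, which became 0.88 without saline replicate 1. H2-K1, a class I histocompatibility heavy chain, had 876, 26.7 and 114 CPM against 240, 34.0 and 28.1 CPM. Interferon and vascular sums were highest in replicate 1 of each group, and the part of each in the other was not tested.

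**Figure D2:**
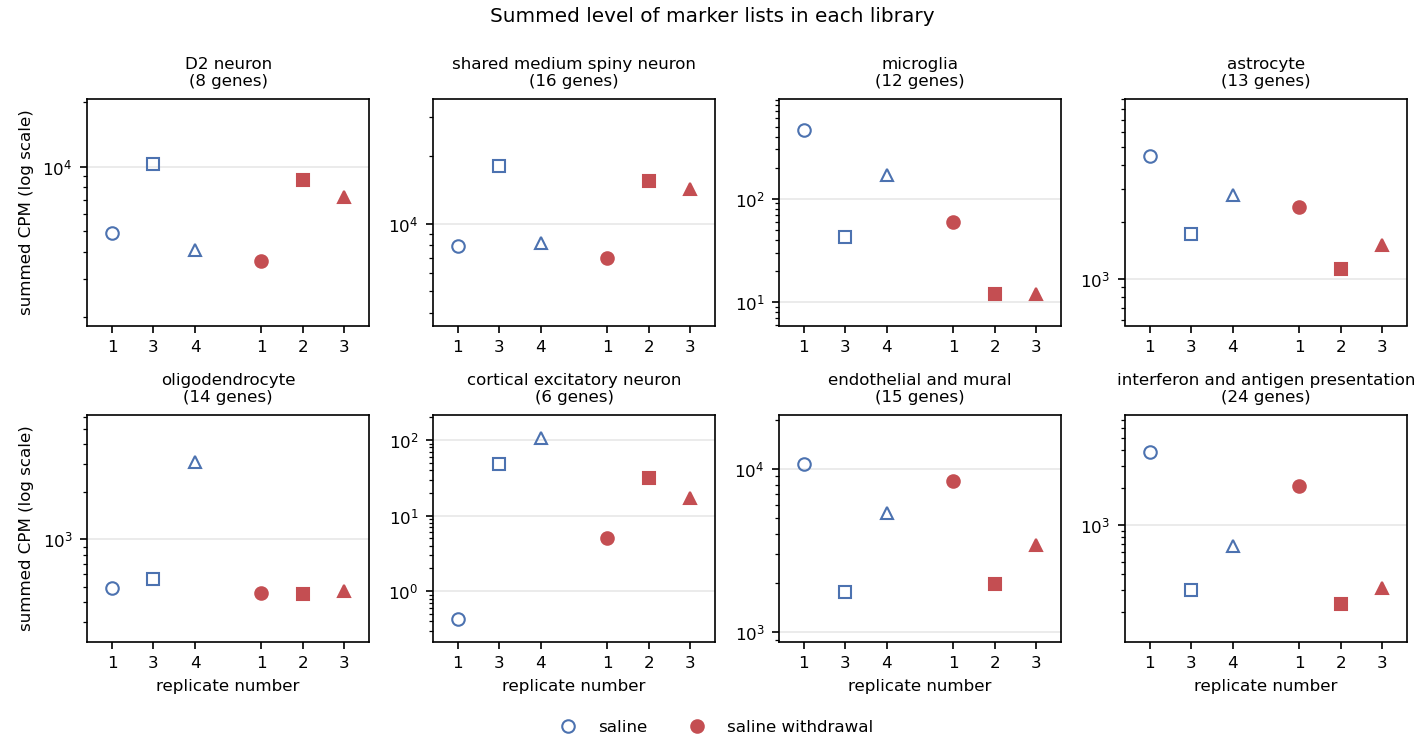
Summed CPM of 8 marker lists in each library on log axes, with open blue symbols for saline replicates 1, 3 and 4 and filled red symbols for saline withdrawal replicates 1, 2 and 3. The D2 neuron sums overlap, the microglial sums are highest in saline replicate 1 (463 CPM), and saline replicate 4 stands alone in the oligodendrocyte panel (3076 CPM). The microglial sums cover the 11 tested genes of the 12 in the panel title.

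Immediate early genes, which neurons switch on within minutes of activity, had 18 of 31 tested members above 0 and a median of 0.23, which was -0.39 without withdrawal replicate 2. The groups were separate in 1 gene on each side, beside 3.69% (higher) and 2.93% (lower) of all genes. Nr4a1, an orphan nuclear receptor, had 62.9, 46.9 and 37.3 CPM in saline and 3.26, 9.03 and 30.0 CPM after withdrawal (log2 fold change -1.78, SE 0.82). Egr4, a zinc finger factor of the Egr family, was on the other side with 1.72, 5.58 and 8.06 CPM against 32.6, 19.6 and 10.9 CPM (log2 fold change 2.04, SE 1.38). Fos had 0 counts in 3 of the 6 libraries and at most 6.45 CPM (withdrawal replicate 2). Klf10 had 47.8, 32.2 and 4.78 CPM against 6.99, 5.25 and 4.50 CPM, and Dusp1, a MAP kinase phosphatase, 94.1, 165 and 78.9 CPM against 53.6, 41.4 and 96.8 CPM. The list thus had members in both directions.

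In the MAP kinase and CREB list 12 of 30 genes were above 0 and the median was -0.04, the same as over all genes. Creb1, the cAMP response element binding factor, had 58.4, 44.3 and 36.1 CPM in saline and 90.5, 90.1 and 82.2 CPM after withdrawal (log2 fold change 0.92, SE 0.52). Its withdrawal libraries were tight and all above the saline ones. In this list the groups were separate in 1 gene on each side, beside 3.69% (higher) and 2.93% (lower) of all genes. The dopamine and cAMP signalling genes gave 18 above and 16 below 0 of 34, with a median of 0.05. Opioid and neuropeptide genes leaned to the higher side, with 16 of 21 above 0 and a median of 0.31 that ran from 0.07 to 0.78 over the settings tried, but in none of the 21 were the groups separate.

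Of 23 circadian clock genes 12 were above 0, and their median was 0.03. Per3, a period gene of the clock's negative limb, had 333, 88.1 and 95.0 CPM in saline and 73.7, 43.3 and 71.5 CPM after withdrawal (log2 fold change -1.46, SE 0.53). Dbp, an output factor of the clock, had 26.1, 9.61 and 41.2 CPM against 7.46, 5.99 and 7.88 CPM (log2 fold change -1.85, SE 0.95). Both were lower in all 3 withdrawal libraries, as were 2.93% of all genes, while the other 21 members overlapped. The time of day at which tissue was taken is not stated in the labels.

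Among 19 tested glucocorticoid receptor targets and partners, 7 were above 0 and the median was -0.06. Sgk1, the serum and glucocorticoid regulated kinase, had 14, 5.81 and 17.02 CPM in saline and 37.3, 28.8 and 63.2 CPM after withdrawal (log2 fold change 1.82, SE 0.69). Ddit4, a stress-induced inhibitor of the mTOR complex, had 3.88, 3.68 and 6.57 CPM against 11.2, 17.1 and 29.6 CPM (log2 fold change 2.04, SE 0.96). Errfi1, an inhibitor of EGF receptor signalling, lay the other way with overlapping groups: 22.4, 100.1 and 62.4 CPM against 33.1, 22.5 and 12.8 CPM. Sgk1 and Ddit4 were thus higher in every withdrawal library, and Hif3a was lower in every one at no more than 4.48 CPM in any library. Of all genes, 3.69% were separate on the higher side and 2.93% on the lower.

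Synaptic lists sat on the median of all genes: 0.02 for 38 glutamate receptor and scaffold genes, 0.01 for 15 GABA receptor genes, -0.02 for 34 synaptic vesicle genes and 0.01 for 29 sodium and calcium channel genes. Without saline replicate 3 these medians were 0.31, 0.81, 0.48 and 0.31 in the same order, beside 0.09 over all genes. Of the 34 vesicle genes 16 were above 0 with all libraries, 29 without saline replicate 3 and 3 without saline replicate 1. Shank1, a scaffold of the postsynaptic density, had 1384, 761 and 955 CPM in saline and 419, 595 and 644 CPM after withdrawal (log2 fold change -0.90, SE 0.45). Bsn, the presynaptic scaffold bassoon, had 849, 819 and 788 CPM against 361, 539 and 610 CPM (log2 fold change -0.70, SE 0.46). The saline values of Bsn were nearly equal, and all withdrawal values were below them. Shank1 and Bsn were each the only separate gene of their list (38 and 34 genes), beside 2.93% of all genes on the lower side.

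Of 43 potassium channel genes 24 were above 0 (median 0.06), with separate groups in 1 gene that was higher (Kcnn1) and 3 that were lower (Kcnma1, Kcnk9 and Kcnj4), beside 3.69% and 2.93% of all genes. Kcnma1, the large-conductance calcium-activated channel, had 170, 122.7 and 190 CPM in saline and 53.6, 105 and 122.5 CPM after withdrawal, a gap of less than 1 CPM between the groups. Kcnk9, a leak channel, had 48.5, 15.8 and 3.58 CPM against 0, 2.40 and 1.501 CPM (log2 fold change -4.03, SE 1.79). Kcnj3, an inward rectifier gated by G proteins, had 0, 5.46 and 5.38 CPM against 2.80, 25.9 and 29.5 CPM with overlapping groups. In the endocannabinoid list, Napepld, the enzyme that makes N-acylethanolamines such as anandamide, had 7.75, 3.92 and 5.97 CPM against 28.4, 21.3 and 15.01 CPM (log2 fold change 1.87, SE 0.96), while Mgll, which degrades the endocannabinoid 2-arachidonoylglycerol, overlapped at 58.8 to 173 CPM against 52.7 to 86.2 CPM.

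Metabolic and protein synthesis genes were described by the same counts. Cholesterol synthesis had 10 of 23 genes above 0 and a median of -0.19, with Lss higher and the pair Srebf2 and Pmvk lower in separate groups. Srebf2, the transcription factor that drives the pathway, had 418, 113 and 83.9 CPM in saline and 40.6, 80.6 and 83.1 CPM after withdrawal, touching at the inner values (log2 fold change -1.59, SE 0.60). Pmvk, phosphomevalonate kinase, had 17.2, 70.0 and 11.95 CPM against 3.26, 10.1 and 7.32 CPM (log2 fold change -2.25, SE 1.01). Genes of 1 pathway thus lay on opposite sides. Separate groups were found in 3.69% (higher) and 2.93% (lower) of all genes. The fatty acid synthesis list was even, 10 above and 10 below 0.

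The 77 oxidative phosphorylation genes had a median of -0.01, and the groups were separate in 5 higher and 2 lower genes, beside 3.69% and 2.93% of all genes. Without saline replicate 3 the median was 0.44 with 58 of 77 above 0. Ndufb6, a subunit of complex I, had 0.646, 12.5 and 2.39 CPM in saline and 22.9, 20.6 and 17.5 CPM after withdrawal, while Ndufs8, of the same complex, had 284, 149 and 12.8 CPM against 50.4, 47.3 and 34.9 CPM. The 78 cytosolic ribosomal protein genes had a median of -0.13, with single-gene folds between -0.92 and 1.03. Aminoacyl-tRNA synthetases, which charge tRNAs with amino acids, had 12 of 20 above 0 (median 0.20), with separate groups in 3 higher genes (Rars, Dars and Farsa) and in no lower one, beside the same 3.69% and 2.93%. Rars, the arginyl-tRNA synthetase, was the steadiest of them, at 16.4, 16.02 and 18.8 CPM against 38.2, 40.6 and 31.9 CPM (log2 fold change 1.11, SE 0.68).

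The list of unfolded protein and amino acid stress genes had 17 of 24 members above 0 and a median of 0.25, between 0.07 and 0.70 over the settings tried. Atf4, the transcription factor of the integrated stress response, had 14.2, 63.2 and 58.5 CPM in saline and 74.6, 79.1 and 73.0 CPM after withdrawal (log2 fold change 0.74, SE 0.58). Its groups were separate, as were those of Shmt2, which belongs to the same list, beside 3.69% of all genes on the higher side. Heat shock and chaperone genes had 20 of 33 above 0 (median 0.20). Cct3, a subunit of the cytosolic chaperonin, had 6.03, 37.7 and 15.2 CPM against 58.3, 45.8 and 43.7 CPM (log2 fold change 1.32, SE 0.85). Among 41 histone deacetylase and chromatin genes 17 were above 0 (median -0.14). The groups were separate on the lower side in Ep300, an acetyltransferase, with 521, 336 and 357.5 CPM in saline and 292, 240 and 279 CPM after withdrawal. Besides Hdac5, they were separate on the higher side in Ezh2, the methyltransferase of Polycomb complexes, at 0, 10.3 and 2.99 CPM against 11.7, 37.0 and 13.5 CPM (log2 fold change 2.21, SE 1.26). These were 2 higher genes and 1 lower gene of the 41, beside 3.69% and 2.93% of all genes.

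**Figure D3:**
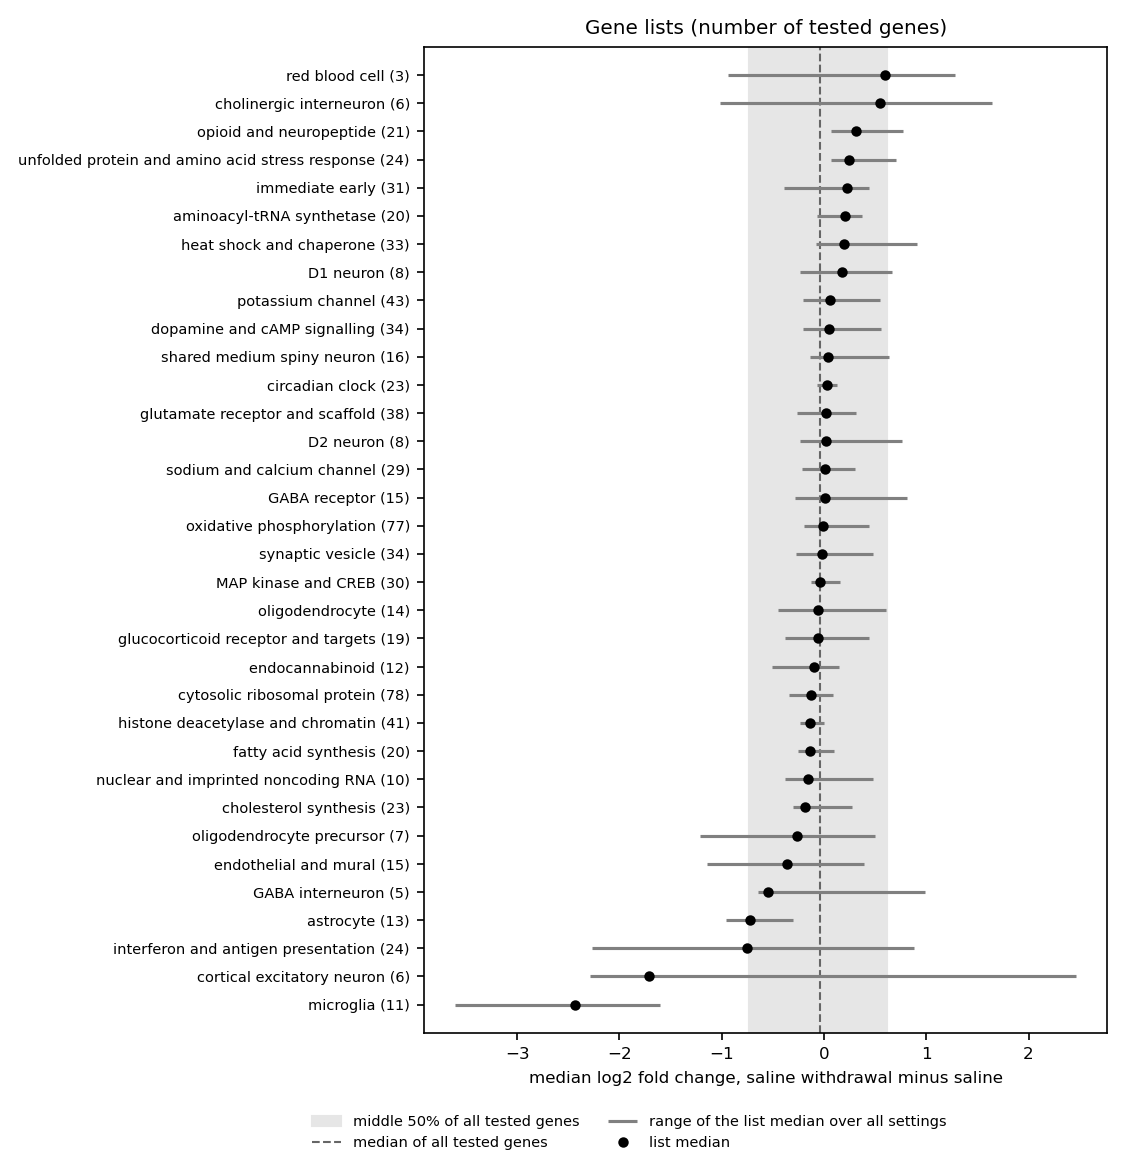
Median log2 fold change of 34 gene lists (black points, number of tested genes in brackets) with its lowest and highest value over all settings (grey lines), beside the median of all tested genes (dashed line, -0.04) and their quartiles (grey band, -0.73 to 0.62). The list of choroid plexus and ependyma genes, with 2 tested, is left out; only the microglial and astrocyte lines stay below 0 among the lists with medians under -0.5.

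The saline contrast was set against the same contrast in animals that took cocaine without escalation. No gene of 16569 (0%) passed the test of the difference between the withdrawal effects, the smallest adjusted p in edgeR was 1, and 652 genes had an unadjusted p under 0.05. DESeq2 called 9 genes and limma voom 0. In the labels of the nonescalating libraries, withdrawal appears in the description but not in the title, and the grouping follows the title. In all 24 genes with the smallest p in saline animals, the nonescalating groups with and without withdrawal overlapped, with fitted log2 fold changes between -1.19 and 1.25. These genes were chosen for their difference in saline animals, so these values are a description. Groups of 5 and 3 libraries overlap more readily than groups of 3 and 3. The share of such overlap over all genes was not counted.

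The 4 genes with the smallest p for the difference were Hdac5, Trpc5, Spata2 and Ppp1r16a. Hdac5 ranged from 309 to 911 CPM in the 5 nonescalating libraries (median 445) and had 165, 322 and 369 CPM after nonescalating withdrawal. Its saline libraries (116 to 157 CPM) lay below every library of both nonescalating groups. The difference of the log2 fold changes was 3.01 with a standard error of 0.73 (adjusted p = 1 in edgeR and 0.0342 in DESeq2). Trpc5 (chromosome X, 144381671 to 144688180), a calcium-permeable cation channel of neurons, had 3.45, 3.32 and 5.97 CPM in saline and 9.33, 10.8 and 37.5 CPM after withdrawal. In nonescalating libraries it ran from 7.79 to 146 CPM (median 52.4), with 1.31, 5.06 and 11.3 CPM after nonescalating withdrawal (difference 5.58, SE 1.43, adjusted p = 1 in edgeR and 0.0239 in DESeq2). Trpc5 thus lay on opposite sides in the 2 contrasts.

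Spata2 had 15.2 to 66.6 CPM in nonescalating libraries and 53.9, 51.8 and 88.0 CPM after nonescalating withdrawal, so the saline libraries (126 to 429 CPM) were above all of them (difference -2.56, SE 0.77). Ppp1r16a had 6.02 to 35.0 CPM and 4.36, 22.7 and 25.4 CPM in these groups (difference -4.11, SE 1.26). Among the 4 group means of saline, saline withdrawal, nonescalating and nonescalating withdrawal, saline was the lowest in all 12 higher genes and saline withdrawal the highest in 11. On the lower side saline was the highest in all 12 genes and saline withdrawal the lowest in 11. Both sets of 12 were chosen for their difference between the saline groups, which favours such extremes. These counts therefore describe the choice of genes and test nothing.

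**Figure D4:**
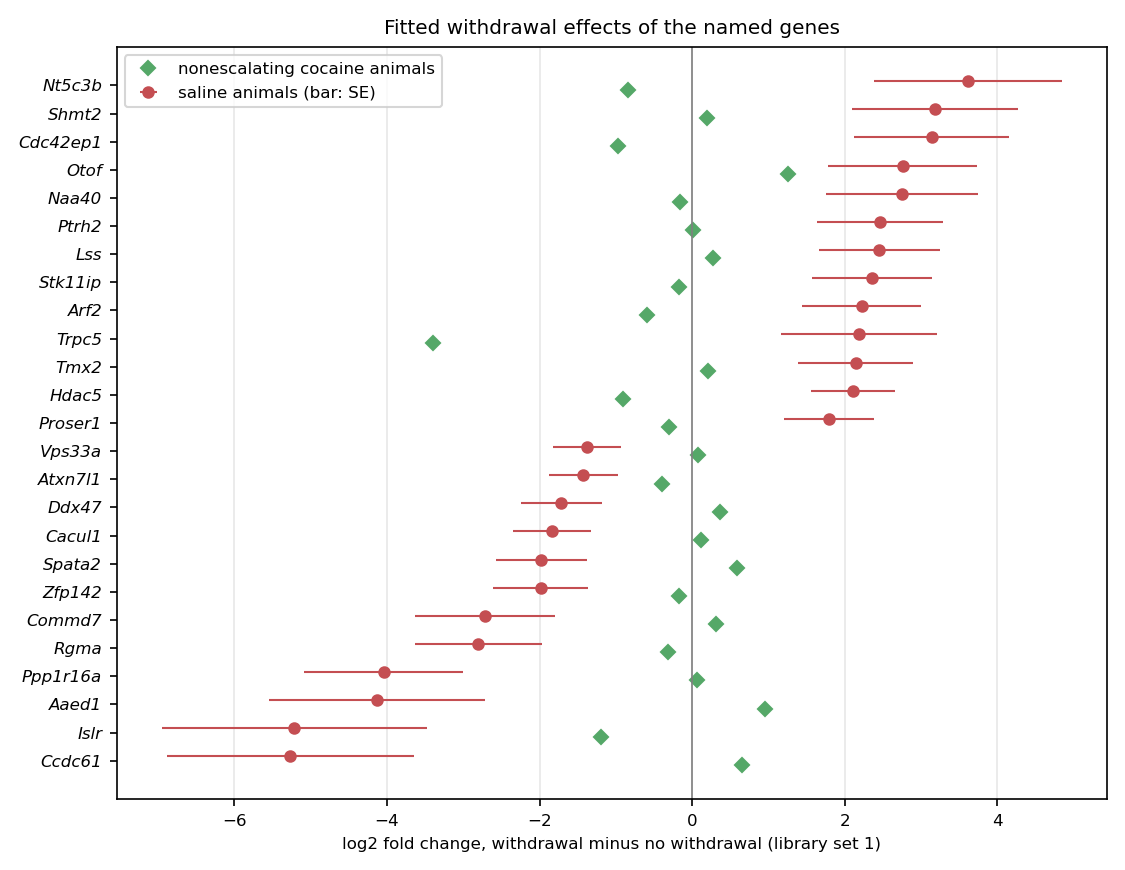
Fitted log2 fold change of withdrawal against no withdrawal in saline animals (red circles, bars are 1 SE) and in nonescalating cocaine animals (green diamonds) for the 24 genes with the smallest p in saline animals and Trpc5. The green values lie between -1.19 and 1.25 except for Trpc5, and no difference between the 2 colours passed the test.

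Saline withdrawal was also sequenced in library set 2, without saline libraries of its own. Set 2 values can thus only be read against the same 3 saline libraries and share them with every value above. Only some of the named genes are given here. They were chosen for a small p against these saline libraries, which favours a difference in set 2 as well. The share of all genes with set 2 outside the saline range was not counted, so the values do not serve as a replication. On a scale common to both sets, Lss had 29.8, 103 and 30.2 CPM in set 2 with saline at 1.55 to 9.28 CPM and set 1 withdrawal at 29.3 to 33.7 CPM. Rgma had 7.96, 9.80 and 3.16 CPM with saline at 57.1 to 207 CPM, and Ppp1r16a had 8.84, 1.09 and 7.02 CPM with saline at 11.4 to 198 CPM. Sgk1 had 52.4, 24.5 and 61.4 CPM in set 2 with saline at 5.91 to 17.1 CPM, and Ddit4 had 11.5, 20.7 and 15.4 CPM with saline at 3.74 to 6.61 CPM. Vps33a had 117, 116 and 144 CPM with saline at 171 to 234 CPM.

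In the next 6 genes at least 1 set 2 library lay within the saline range. Hdac5 had 168, 637 and 134 CPM with saline at 119 to 158 CPM. Stk11ip had 6.19, 1.63 and 37.5 CPM with saline at 4.66 to 21.6 CPM, and Shmt2 had 15.9, 0.544 and 17.5 CPM with saline at 0 to 6.01 CPM. Cacul1 had 138, 66.4 and 76.8 CPM with saline at 70.3 to 290 CPM, and Aaed1 had 5.598, 37.6 and 0.351 CPM with saline at 8.41 to 112 CPM. Nr4a1 had 13.6, 49.0 and 45.3 CPM with saline at 37.5 to 64.8 CPM. With both sets in 1 fit of 24 libraries and library set as a term, 0 of 15854 genes passed in edgeR and the smallest adjusted p was 0.649.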

How the data were processed

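Polysome RNA of 6 libraries (3 saline, 3 saline withdrawal) was compared. Each deposited file holds raw counts per gene symbol for 1 library, whole numbers that the authors did not normalize. The submitters' processing notes name STAR 2.0.0e, HTSeq and the build mm10. For the HTSeq version, the annotation and the strand setting, nothing is given in the sources used here, and overlapping, antisense or near-identical genes may share reads. The 5 summary rows of each file were left out. Groups follow the sample titles.

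All 16 immunopurified set 1 libraries were fitted by group in R 4.3.3 with edgeR 4.0.16 (quasi-likelihood test, robust, TMM scaling, low genes removed by filterByExpr at a count of 10, Benjamini-Hochberg threshold 0.05), leaving 11 residual degrees of freedom. Standard errors were derived from the fitted log2 fold change and its F statistic. Levels are TMM-scaled CPM. Each of the 6 libraries was compared with every other of its group: chi-square per degree of freedom was at least 53.1, so none was the same library deposited again.

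The genes named are the 12 with the smallest p in each direction (predicted symbols and genes with a mean log2 CPM under 2 left out), up to 4 members of each of 35 lists, the 4 with the smallest p for the difference, and 7 fixed genes (Chat, Fos, Drd1, Tac1, Drd2, Penk, Adora2a). Cx3cr1, Ctss, Neu4, Mog, Kcnn1, Kcnj4, Farsa, Hif3a and Ep300 are named, as list members with separate groups, after their values were seen, as is Pde3b for its call by DESeq2. The comparison, lists and genes were chosen with earlier results of these data known. Alternatives were DESeq2 1.42.0, limma 3.58.1 voom with quality weights, median-of-ratios scaling, other count filters (none, CPM of at least 1 in at least 3 libraries), only the 6 libraries, both library sets, a replicate block, each library left out and, added after seeing the data, saline replicate 1 and withdrawal replicate 1 left out together. Some genes that the rule allows are not reported here. The scripts were tested on simulated data in which the spread was capped below the common spread of these libraries. That test does not show how they behave at the spread seen here.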

Additional observations from a re-analysis of the deposited data

How the results depend on the processing

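The count of genes past the threshold stayed at 0 under every edgeR and limma setting, and moved under DESeq2, which called 12 genes for the saline contrast (5 higher, 7 lower, 9 of them without a count in 1 group) and 9 for the difference from nonescalating animals. Its adjusted p was 0.0147 for Ppp1r16a (-4.02), and for the difference 0.0342 for Hdac5 (3.13) and 0.0239 for Trpc5 (5.69). Leaving out each library in turn gave 0 to 0 genes in both tests, with 481 to 1026 genes at an unadjusted p under 0.05 for the saline contrast. Without saline replicate 1 and withdrawal replicate 1, a setting chosen after seeing the data, 0 genes passed and 402 had an unadjusted p under 0.05. The count of genes with separate groups stayed between 1097 and 1122.

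Of 1107 refitted values of 72 fold changes and differences of named genes, 24 changed sign, all but 1 of them in genes named in any case. The other named genes were mostly chosen for a small p in these same data, which favours a steady sign. With single libraries left out, Drd2 ran from -0.40 to 0.35, Adora2a from -0.24 to 0.61, Penk from -0.19 to 0.98, Drd1 from -0.68 to 0.25, Tac1 from -0.61 to 0.78, Fos from -1.46 to 6.96, Chat from -0.76 to 2.97 and H2-K1 from -3.44 to 0.52. With voom Drd2 was 0.229 and Drd1 0.026. Drd2 was 0.031 without a filter and 0.008 with both library sets. Without both replicates 1, Drd2 was 0.341 and Drd1 0.051. The cause was not tested. Of 525 refitted list medians, 112 changed sign and 27 moved by more than 1 SD of the list's score.

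With the replicate number as a block, 0 genes passed for the saline contrast (469 at an unadjusted p under 0.05) and 0 for the difference (444). Under the block, Adora2a was -0.025, Tac1 -0.20 and Fos -0.46. Only numbers 1 and 3 occur in both saline groups, and the deviations of these pairs correlated at 0.21 and 0.08. Pairs with other numbers ran from -0.28 to 0.26. So few pairs cannot decide whether libraries of equal number share more than the number.

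Depth limits low genes: 3 counts are 1.55 CPM in the shallowest library. With 3 libraries a group and a common biological coefficient of variation of 0.988, differences of the size seen in most genes were not detectable.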

Other observations

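The lists not described above lay near the median of all genes or held few tested genes. The 10 nuclear and imprinted noncoding RNAs, such as Malat1 and Meg3, had 5 members above and 5 below 0 (median -0.16). Their summed level was 39050, 10150 and 29260 CPM in saline replicates 1, 3 and 4 and 28470, 12770 and 26500 CPM in withdrawal replicates 1, 2 and 3. The libraries with the lowest sums, saline replicate 3 and withdrawal replicate 2, were the deepest of their groups and had the lowest summed vascular level. D1 neuron markers had 6 of 8 above 0 (median 0.17), GABA interneuron markers 2 of 5 (median -0.55), oligodendrocyte precursor markers 3 of 7 (median -0.26), red blood cell genes 2 of 3 (median 0.59) and endocannabinoid genes 5 of 12 (median -0.10). Of 5 choroid plexus and ependyma genes, 2 were tested, 1 on each side of 0.

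Besides Ppp1r16a, the genes that DESeq2 called with counts in both groups were Pde3b, a cyclic nucleotide phosphodiesterase (log2 fold change 6.02, adjusted p = 0.0217), and 1 transcript with only a clone name. edgeR did not call Pde3b.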
